A study of Mus musculus with 4 samples.

Results

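The 4 Id genes (Id1, Id2, Id3 and Id4), the inhibitory Smads Smad6 and Smad7 and the receptor-regulated Smads Smad1 and Smad5 were examined in growth plate cartilage of control and Ift88-deleted mice, which the series also calls cilia-deleted. Members were the probe sets whose platform symbol is exactly one of these 8 gene symbols. They came to 17 of the 45101 probe sets on the array: 1 each for Id1, Id3 and Smad6, 2 for Smad7 and 3 each for Id2, Id4, Smad1 and Smad5. The control group was 2 samples of proliferative zone chondrocytes from wild-type mice on the C57BL/6 background at postnatal day 7. The Ift88-deleted group was 2 samples of the same zone, age and background from Col2aCre;Ift88fl/fl mice, in which Cre recombinase under Col2a control removes Ift88 from cartilage cells. Ift88 encodes an intraflagellar transport protein needed to build the cilium. The labels describe an 18 gauge needle used on 40 µm sections of tibia and femur to take out the zone, with 50 ng of RNA from each sample amplified in 2 rounds and hybridised to an Affymetrix mouse array. Cells of other kinds that such a cut picks up may keep Ift88, which was not examined here. The number of animals per sample is not given. The series design calls the samples biological replicates.

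Bone morphogenetic proteins (BMPs) bind paired receptor kinases at the cell surface, which phosphorylate Smad1, Smad5 and Smad9. These join Smad4, enter the nucleus and switch on target genes, among which the Id genes and the inhibitory Smads are the standard readouts. Id proteins are helix-loop-helix proteins without a DNA-binding basic region: they pair with basic helix-loop-helix (bHLH) transcription factors and keep them off DNA. Smad6 and Smad7 close a negative feedback loop, Smad6 chiefly on the BMP branch and Smad7 on both the BMP and the TGF-beta branch. In the growth plate BMP signalling supports chondrocyte proliferation and later maturation.

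Every value is a log2 value from which the probe set's own median over the 4 arrays has been subtracted. A value of 0 is thus the middle of the 4 arrays, a difference of 1 is 2-fold, and how strongly a gene is expressed cannot be read. Because of the subtraction the middle pair of the 4 values is equal in size and opposite in sign. Differences are Ift88-deleted minus control.

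Id2, Id3, Id4, Smad6 and Smad7 had higher values in both Ift88-deleted arrays than in both control arrays, on each of their 10 probe sets. Id1 overlapped between the groups, and so did Smad1 and Smad5 as gene means. None of the 17 probe sets passed limma's moderated test at an adjusted p under 0.05 over all 45037 probe sets tested (0 of 17, where 0.0444% of all probe sets passed). At an unadjusted p under 0.05, 6 of the 17 were higher (3% of all probe sets) and 0 were lower (3.18%): 2 probe sets of Id2, 2 of Id4 and both of Smad7. Groups that do not overlap with the Ift88-deleted arrays higher were found on 10 of the 11 probe sets of Id genes and inhibitory Smads (16.2% of all probe sets), and on 0 of the 6 of Smad1 and Smad5. These genes were chosen with earlier results of these data known, so the counts describe them and do not test the family.

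**Figure D1:**
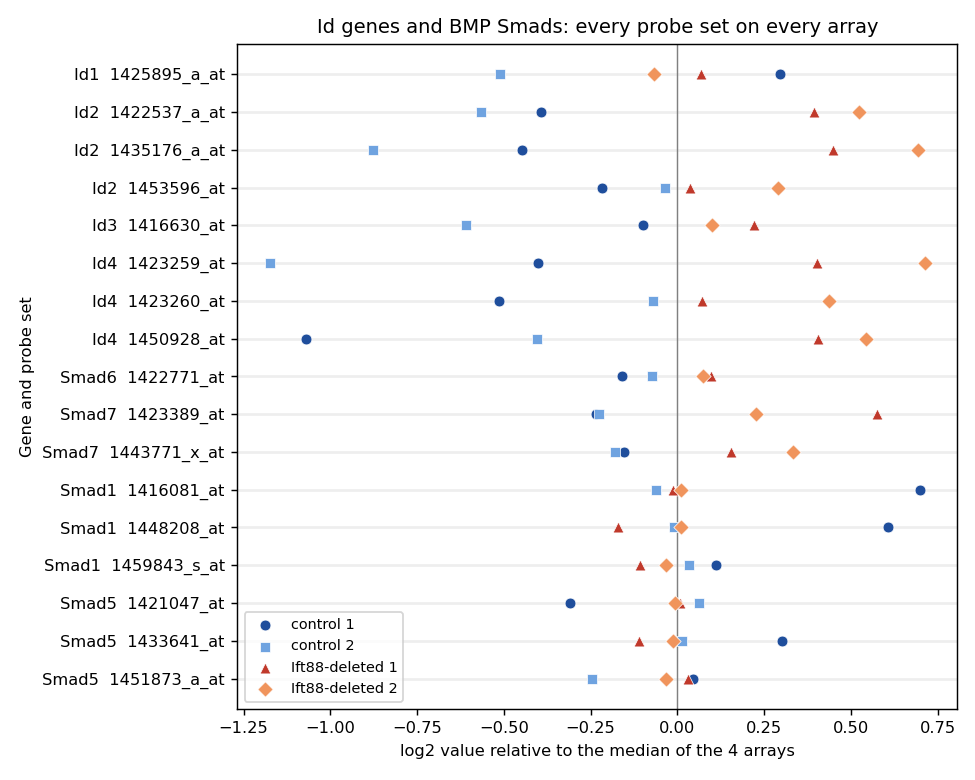
Log2 value of each of the 17 probe sets on each of the 4 arrays, relative to the median of the 4 (horizontal axis). Circles and squares are the control arrays, triangles and diamonds the Ift88-deleted arrays. On the 10 probe sets of Id2, Id3, Id4, Smad6 and Smad7 both Ift88-deleted arrays lie above 0 and both control arrays below it. Control 1 alone is high on 2 probe sets of Smad1 (0.70 and 0.61).

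Facts of the arrays stand beside every value given here. Xist, the RNA of the inactive X chromosome of female cells, was at 3.58 and 3.74 in the control arrays and -3.79 and -3.61 in the Ift88-deleted arrays, and the Y-linked Eif2s3y was at -1.55 and -1.78 against 1.80 and 1.55, so that sex by these genes and genotype cannot be told apart. Control 1 scored -53.9 on the first principal component, which held 51.4% of the variance. Control 2 scored 0.58 and the Ift88-deleted arrays 16.8 and 36.6, so both control arrays lay below both Ift88-deleted arrays. The SD over probe sets was 0.381 for the difference between the control arrays and 0.279 for that between the Ift88-deleted arrays. For the difference between the group means it was 0.289. That difference is between means of 2 arrays and the others between single arrays. Averaging makes the SD smaller, so these values cannot be compared directly. The Gapdh control probe sets were lower in both Ift88-deleted arrays (differences of -0.75 at the 3′ end and -0.57 at the 5′ end), and the part of RNA quality in the results below was not tested. Levels can be placed only in coarse classes, from the steps left by the numbers' stored precision. Of 33 probe sets of 14 chondrocyte markers such as Col2a1, Acan and Sox9, 27 fell in the brightest class (original log2 value of 8 or more) and 0 in the dimmest, against 32% and 14.6% of all probe sets, and 21.9% of the brightest class also kept the next coarser step, so that some of that class may be dimmer. The single probe set of Ift88 gave a difference of 0.08 (SE 0.166), but where it lies in the gene was not examined, and so it is no check of the deletion.

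Id4 had the largest difference of the 8 genes. Id4 is the Id protein best known from neural progenitors and from osteoblast differentiation, and the gene lies on chromosome 13 (48261116 to 48266028, GRCm38.p6). Its probe set 1423259_at was at -0.40 and -1.17 in control 1 and 2 and at 0.40 and 0.71 in Ift88-deleted 1 and 2. The groups lay 0.81 apart, about the gap of 0.77 between the control arrays. The difference was 1.35 (SE 0.285, n = 2 per group, 95% interval 0.63 to 2.06), a 2.54-fold higher value, with an adjusted p of 0.539 in limma, and it was the 99.86th percentile of all differences.

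The second Id4 probe set, 1450928_at, was at -1.07 and -0.41 in the control arrays and 0.41 and 0.54 in the Ift88-deleted arrays. Here control 1 was the lowest array, whereas on 1423259_at control 2 was, so the order of the control arrays turned between probe sets of the same gene. The difference was 1.21 (SE 0.246, 95% interval 0.60 to 1.83), 2.32-fold, with an adjusted p of 0.517. The third, 1423260_at, was at -0.51 and -0.07 against 0.07 and 0.44. Its groups were apart by 0.14 only, less than either pair of replicates (0.44 and 0.37), and its difference was 0.55 (SE 0.22, 95% interval -0.01 to 1.10, adjusted p = 0.81). Without control replicate 2 it was 0.77 and without control replicate 1 it was 0.32. As the mean of the 3 probe sets, Id4 was at -0.66 and -0.55 in the controls and 0.29 and 0.56 in the Ift88-deleted arrays. Opposite deviations of the control arrays partly cancel in this mean. Their gap was 0.11 there, against 0.77 on 1423259_at and 0.67 on 1450928_at, so the SE of the mean is smaller as well. The difference of 1.04 (SE 0.149) or 2.05-fold did not pass over all 18193 genes (adjusted p = 0.238, where 0.011% of genes passed). Those that passed were the sex-linked Xist and Eif2s3y, and 0 genes passed with X and Y genes left out.

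Id2, on chromosome 12 (25093799 to 25096092), is an Id protein induced by BMP and TGF-beta family signals in many cell types and known to hold back cell cycle exit. Probe set 1435176_a_at was at -0.45 and -0.88 in the control arrays and at 0.45 and 0.69 in the Ift88-deleted arrays. The distance between the groups, 0.89, was over the gaps within them (0.43 and 0.25). The difference was 1.23 (SE 0.201, 95% interval 0.73 to 1.74), 2.35-fold, with an adjusted p of 0.364 in limma.

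Probe set 1422537_a_at of Id2 was at -0.39 and -0.57 against 0.39 and 0.52. Its groups lay 0.79 apart, with 0.17 and 0.13 within them, and the difference was 0.94 (SE 0.149, 95% interval 0.56 to 1.31), 1.92-fold (adjusted p = 0.343). The third Id2 probe set, 1453596_at, was at -0.22 and -0.04 against 0.04 and 0.29. That separation of 0.07 was within the spread of the replicates, and the difference of 0.29 (SE 0.164, 95% interval -0.12 to 0.70, adjusted p = 0.883) was 0.16 without Ift88-deleted replicate 2. In the Affymetrix naming an _a_at probe set matches several transcripts of its gene, while _at marks no such sharing. Id2 as a gene mean was at -0.35 and -0.49 against 0.29 and 0.50, a difference of 0.82 (SE 0.142, 1.77-fold, adjusted p = 0.329).

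Id3, on chromosome 4 (136143822 to 136145392), is among the genes that respond most directly to BMP receptors. Its single probe set 1416630_at was at -0.10 and -0.61 in the control arrays and at 0.22 and 0.10 in the Ift88-deleted arrays. The groups did not overlap, but the step between them (0.20) was smaller than the gap between the control arrays (0.51). The difference was 0.52 (SE 0.208, 95% interval -0.01 to 1.04, adjusted p = 0.81), and it was 0.26 without control replicate 2.

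Id1, on chromosome 2 (152736251 to 152737410), is the Id gene most used as a BMP reporter and is also abundant in endothelium. Its single probe set 1425895_a_at was at 0.29 and -0.51 in the control arrays and 0.07 and -0.07 in the Ift88-deleted arrays. Both Ift88-deleted arrays lay between the control arrays. The difference was 0.11 (SE 0.282, 95% interval -0.60 to 0.82, adjusted p = 1), with an interval that holds both a fall and the difference seen for Id3. Without control replicate 1 it was 0.51 and without control replicate 2 it was -0.29, so its sign rested on which control array was kept. Whether Id1 differs from the other Id genes in its response was not tested.

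**Figure D2:**
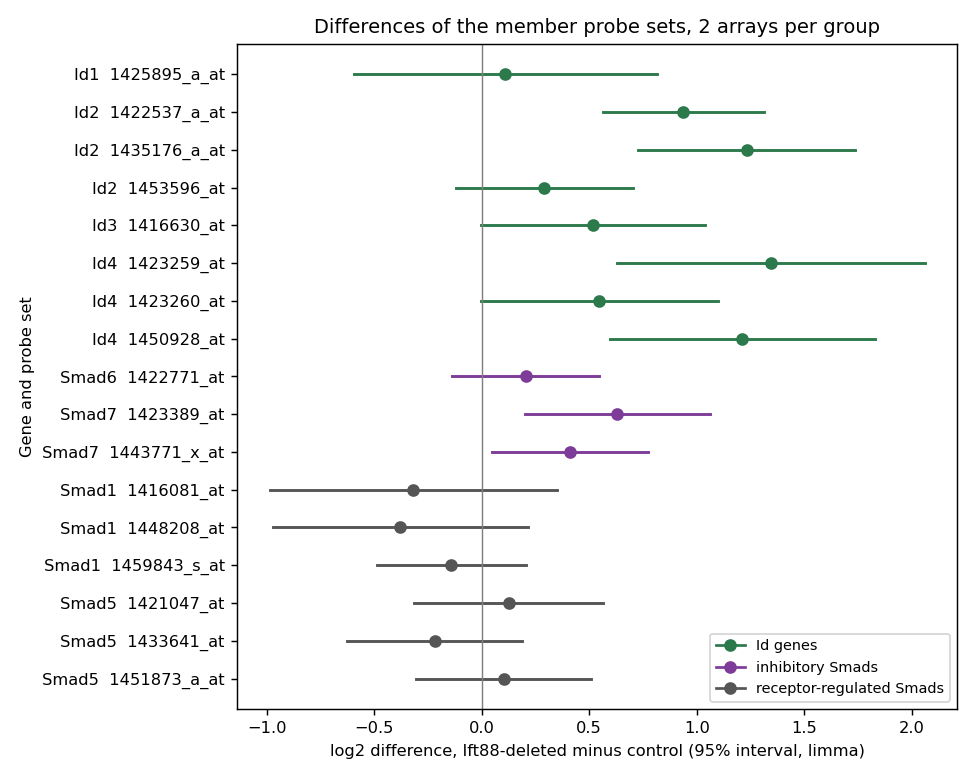
Log2 difference, Ift88-deleted minus control, of each of the 17 probe sets (point) with its 95% interval from limma (line), 2 arrays per group. Green marks Id genes, purple the inhibitory Smads and grey Smad1 and Smad5. Intervals of 6 probe sets lie wholly above 0: those of Id2 at 0.94 and 1.23, of Id4 at 1.35 and 1.21, and of Smad7 at 0.63 and 0.41.

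Upstream sequences are shown for the 3 Id genes whose groups did not overlap, to set the family's higher members side by side. Smad6 and Smad7 also lay higher in both Ift88-deleted arrays and are not printed. Each sequence is the window of 250 bases ahead of the annotated start in RefSeq (GRCm38.p6), written 5′ to 3′ on the gene's strand. For 6 of the 8 genes such a window was at hand, and for Id1 and Smad7 none was. Capitals mark GGCGCC, a GC-rich palindrome described in BMP-responsive elements.
Id2, chr12:25096093-25096342, minus strand: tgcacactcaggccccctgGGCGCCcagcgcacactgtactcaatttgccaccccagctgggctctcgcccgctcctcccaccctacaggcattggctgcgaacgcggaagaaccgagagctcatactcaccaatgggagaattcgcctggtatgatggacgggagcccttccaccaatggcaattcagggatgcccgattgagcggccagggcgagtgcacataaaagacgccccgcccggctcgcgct
Id3, chr4:136143572-136143821, plus strand: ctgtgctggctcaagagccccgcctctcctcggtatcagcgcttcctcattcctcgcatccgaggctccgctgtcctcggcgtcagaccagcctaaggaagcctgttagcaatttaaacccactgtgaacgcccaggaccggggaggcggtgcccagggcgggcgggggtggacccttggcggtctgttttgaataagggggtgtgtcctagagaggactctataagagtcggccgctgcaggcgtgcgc
Id4, chr13:48260866-48261115, plus strand: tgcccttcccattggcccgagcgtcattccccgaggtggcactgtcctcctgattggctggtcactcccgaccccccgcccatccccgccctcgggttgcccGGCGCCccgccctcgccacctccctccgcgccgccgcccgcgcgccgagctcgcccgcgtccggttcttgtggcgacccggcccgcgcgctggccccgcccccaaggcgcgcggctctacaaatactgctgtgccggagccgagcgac
GGCGCC reads the same on both strands. It occurred 1 time in the Id2 window, 231 to 226 bases ahead of the start, 1 time in the Id4 window, 148 to 143 bases ahead, and 0 times in the windows of Id3, Smad6 and Smad1. Of all 32851 windows of this length 9.59% held it. One of the 3 windows of Smad5 held it as well, a gene that did not share the higher values. GTCT, the core letters of a Smad site, was searched on both strands and was in the windows of Id2 (1 match), Id3 (2 matches) and Smad6 (1 match) and in all 3 windows of Smad5 (1, 1 and 2 matches), and not in those of Id4 and Smad1. Of all windows 82.9% hold it. The pair with a fixed spacing, GGCGCC, any 5 bases and then GTCT, which contains both of these motifs, was in none of the members' windows and in 0.07% of all. GGGCGG, the letters of a GC box, had 5 matches in Id4, 2 in Id3, 1 in Id2, 4 in Smad6, 1 in Smad1 and 1, 1 and 7 in the windows of Smad5, with 32.7% of all windows holding at least 1. GTCT and GGGCGG were each found in windows of members that lay higher and in those of Smad5. Smad7, which also lay higher, could not be searched. In Id4 a GC box on the other strand begins at the base after GGCGCC and does not overlap it. The members' windows are rich in G and C (62.8% for Id2 and for Id3, 75.6% for Id4, 66.8% for Smad6, 63.6% for Smad1 and 60% to 68.4% for Smad5, median of all windows 52.4%). A match in letters does not show a bound site.

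Smad7, on chromosome 18 (75367365 to 75395935), is the inhibitory Smad that blocks receptors of both branches. Its probe set 1423389_at was at -0.23 and -0.23 in the control arrays and 0.58 and 0.23 in the Ift88-deleted arrays. The control arrays were within 0.01 of each other, and the groups lay 0.45 apart. The difference was 0.63 (SE 0.171, 95% interval 0.20 to 1.06), 1.55-fold, and did not pass over all probe sets (adjusted p = 0.684). The other probe set, 1443771_x_at, whose suffix marks probes that may also match other transcripts, was at -0.15 and -0.18 against 0.15 and 0.33. It also kept the groups apart, by 0.31, and its difference was 0.41 (SE 0.145, 95% interval 0.05 to 0.78, adjusted p = 0.767). Ift88-deleted 1 was the higher array of its group on the first probe set and the lower on the second. The gene mean of Smad7 was 0.52 higher (SE 0.124, 1.44-fold, adjusted p = 0.583), and with each array left out in turn it lay between 0.48 and 0.56.

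Smad6, on chromosome 9 (63953076 to 64022085), inhibits Smad1 and Smad5 and is itself a BMP target. Its single probe set 1422771_at was at -0.16 and -0.07 in the control arrays and at 0.10 and 0.07 in the Ift88-deleted arrays. The groups were apart by 0.15, the control arrays by 0.09. The difference was 0.20 (SE 0.137, 95% interval -0.14 to 0.55), 1.15-fold (adjusted p = 0.917). It was the single member probe set in the dimmest class, with a lowest original log2 value of 2 to 4.

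Smad1 and Smad5 encode the proteins that carry the BMP signal, and their activity is set by phosphorylation, which arrays do not measure. Smad1, on chromosome 8 (79338395 to 79399428), was at 0.70 and -0.06 in the control arrays and -0.01 and 0.01 in the Ift88-deleted arrays on 1416081_at, and at 0.61 and -0.01 against -0.17 and 0.01 on 1448208_at. On both probe sets control 1 stood alone above the other 3 arrays. The differences were -0.32 (SE 0.266, 95% interval -0.99 to 0.35) and -0.38 (SE 0.237, 95% interval -0.97 to 0.22), and without control replicate 1 they were 0.06 and -0.07, without control replicate 2 -0.70 and -0.69. The third probe set, 1459843_s_at, was at 0.11 and 0.03 against -0.11 and -0.03, apart by 0.07 in the downward direction, with a difference of -0.14 (SE 0.138, adjusted p = 0.962). The gene mean was -0.28 (SE 0.189, 95% interval -0.75 to 0.19), at -0.04 with control replicate 1 left out and -0.52 with control replicate 2 left out.

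Smad5, on chromosome 13 (56703010 to 56742378), had probe sets of both signs. On 1433641_at it was at 0.30 and 0.01 in the control arrays and -0.11 and -0.01 in the Ift88-deleted arrays, a difference of -0.22 (SE 0.163), at -0.08 with control replicate 1 left out and -0.36 with control replicate 2 left out. On 1421047_at it was at -0.31 and 0.06 against 0.01 and -0.01, and on 1451873_a_at at 0.04 and -0.25 against 0.03 and -0.03. On these last probe sets both Ift88-deleted arrays lay between the control arrays, and the differences of 0.12 (SE 0.175) and 0.10 (SE 0.162) turned sign when a control array was left out (to -0.06 without control replicate 1 and to -0.04 without control replicate 2). The gene mean was 0.00 (SE 0.123, 95% interval -0.30 to 0.31). That interval is of a mean over probe sets of both signs, and it does not exclude larger changes. Intervals of single probe sets reach past it, from -0.63 to 0.19 on 1433641_at and from -0.31 to 0.56 on 1421047_at. Of the 6 probe sets of Smad1 and Smad5, 2 were lower in both Ift88-deleted arrays (17.4% of all probe sets), 4 overlapped, and 0 had an unadjusted p under 0.05.

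**Figure D3:**
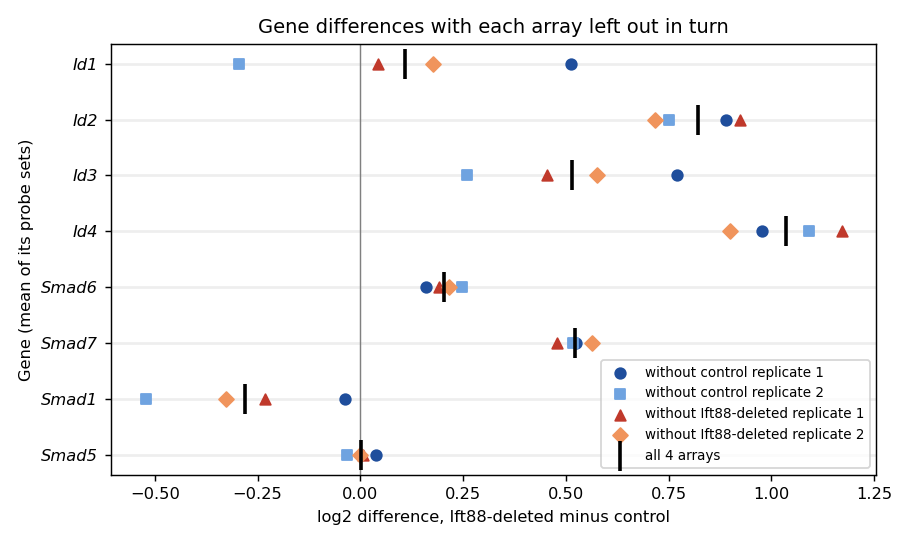
Log2 difference of each gene, as the mean of its probe sets, from all 4 arrays (bar) and with each array left out in turn (symbols). Id2 stays between 0.72 and 0.92 and Id4 between 0.90 and 1.17, while Id1 runs from -0.29 to 0.51 and Smad1 from -0.52 to -0.04, depending on the control array left out. The narrow range of Id4 is that of a mean in which control deviations partly cancel. Its single probe sets ran from 0.96 to 1.73 (1423259_at), 0.32 to 0.77 (1423260_at) and 0.88 to 1.55 (1450928_at).

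Counted as genes, 0 of the 8 passed over all genes in limma, and 4 (Id2, Id3, Id4 and Smad7) were higher at an unadjusted p under 0.05 (2.29% of all genes). This count was 2 without Ift88-deleted replicate 1. Id3 has a single probe set, so the same values enter both fits. Its unadjusted p in limma was 0.040 in the fit of genes and 0.052 in the fit of probe sets, where the pooled spread differs. In 5 of the 8 genes the groups did not overlap with Ift88-deleted higher (14.7% of all genes). The median difference of the 6 Id and inhibitory Smad genes was 0.52, beside -0.01 over all genes. The order of the gene differences was Id4 (1.04), Id2 (0.82), Smad7 (0.52), Id3 (0.52), Smad6 (0.20), Id1 (0.11), Smad5 (0.00) and Smad1 (-0.28), and each value lay inside the 95% interval of the gene named before it. In bulk samples more cells of a kind and more RNA per cell cannot be told apart.

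The genes closest in pattern to Id4 over the 4 arrays, by Euclidean distance among 18192 other genes, were Serpina3n, a secreted protease inhibitor (distance 0.235, difference 0.90), Ackr4, an atypical chemokine receptor (0.236, difference 0.96), and Pla2g5, a secreted phospholipase A2 (0.237, difference 1.09). Closest to Id2 were Tmem47, a junction-associated membrane protein (0.117, difference 0.75), Ralb, a small GTPase (0.129, difference 0.74), and BC005537 (0.135, difference 0.81). Tmem47 lies on the X chromosome, and sex by Xist and Eif2s3y divides these arrays as genotype does. With 4 arrays each of these distances rests on 4 values, so nearness describes these arrays alone. None of the 6 genes passed over all genes (adjusted p from 0.149 to 0.437 in limma).

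The other genes of the pathway were set beside the members in 6 lists by textbook role. In each list 0 genes passed over all genes in either direction in limma, and no list median was further from 0 than 0.07. Counts at an unadjusted p under 0.05 are given list by list.

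BMP ligands had a median difference of -0.02, with 4 of the 8 measured above 0 (48.2% of all genes) and 2 lower at an unadjusted p under 0.05 (3.68% of all genes). Gdf10, a BMP3-related ligand, was at 1.38 and 0.65 in the control arrays and -0.65 and -1.04 in the Ift88-deleted arrays, a difference of -1.86 (SE 0.27, adjusted p = 0.238). Bmp2, a chief ligand of cartilage and bone, was at -0.52 and 0.08 against 0.50 and -0.08, so its groups overlapped (0.43, SE 0.272). Bmp7 was at 0.13 and 0.22 against -0.22 and -0.10, a difference of -0.34 (SE 0.13, adjusted p = 0.83). Without control replicate 2 the list's median was 0.18 and without control replicate 1 it was -0.23.

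The 11 receptor and co-receptor genes had a median of -0.03 with 4 above 0, and 0 reached an unadjusted p under 0.05. The largest differences were those of Acvr2a, a type II receptor (0.21, SE 0.13), Bmpr1a, the type I receptor that chondrocytes rely on (-0.19, SE 0.219), and Tgfbr3, the co-receptor betaglycan (0.18, SE 0.146). Bmpr1a was at 0.50 in control 1 and between -0.12 and -0.00 in the other 3 arrays, the same array that stood high for Smad1.

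Among 14 measured secreted antagonists and binding proteins 6 lay above 0 and the median was -0.07, with 1 gene higher (2.29% of all genes) and 0 lower (3.68%) at an unadjusted p under 0.05. That gene, Fstl1, a follistatin-like glycoprotein that binds BMPs, was at -0.47 and -0.38 in the control arrays and at 0.31 and 0.51 in the Ift88-deleted arrays, a difference of 0.84 (SE 0.137, adjusted p = 0.312), and both of its probe sets kept the groups apart (0.96 and 0.72). Chrdl1, a chordin-like antagonist, was at 1.18 in control 1 alone, with 0.09, -0.19 and -0.20 in the others (difference -0.83, SE 0.342). Bambi, a kinase-less decoy receptor and itself a BMP target, was at -0.11 and 0.11 against 0.23 and -1.04, so that 1 Ift88-deleted array made its difference of -0.40 (SE 0.397).

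Of the 14 other Smads and Smad regulators 12 lay above 0 (48.2% of all genes), with a median of 0.07, and 1 was higher (2.29% of all genes) and 0 lower (3.68%) at an unadjusted p under 0.05. That gene was Ski, a nuclear corepressor of Smad complexes, at -0.44 and -0.15 against 0.15 and 0.43 (0.58, SE 0.169, adjusted p = 0.708). Its relative Skil was at 0.20 (SE 0.13) and the Smad ubiquitin ligase Smurf2 at 0.16 (SE 0.152). Smad9, the third receptor-regulated Smad of the BMP branch, and Smad4, the shared partner, are named for their role: their differences were 0.14 and 0.07.

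Other genes that BMP signals induce went both ways. Of 8 measured, 4 lay above 0 and the median was -0.01, with 2 higher (2.29% of all genes) and 2 lower (3.68%) at an unadjusted p under 0.05. Snai2, a zinc-finger repressor of mesenchymal cells, was at -0.29 and -0.69 in the control arrays and at 0.29 and 0.51 in the Ift88-deleted arrays (0.88, SE 0.181, adjusted p = 0.442). Dlx5, a homeobox factor of skeletal cells, was at 0.65 and 0.23 against -0.23 and -0.59 (-0.85, SE 0.203, adjusted p = 0.583). Sp7, the osteoblast factor osterix, also counted among the bone and perichondrium markers below, was at 0.15 and 0.13 against -0.13 and -0.68 (-0.54, SE 0.204, adjusted p = 0.82). These last genes thus stood on the other side of 0 from Id2 and Id4 in each array.

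The bHLH factors with which Id proteins pair, and their relatives, had a median of 0.07, with 6 of 10 above 0 and 0 higher (2.29% of all genes) and 1 lower (3.68%) at an unadjusted p under 0.05. Twist1, a bHLH factor that restrains bone and cartilage maturation and the gene of that count, was at 0.13 and 0.43 against -0.13 and -0.24 (-0.46, SE 0.154, adjusted p = 0.812). Bhlhe40, a clock- and hypoxia-linked repressor, was at -0.41 (SE 0.184), and the E protein Tcf4, a direct partner of Id proteins, at 0.23 (SE 0.199) with overlapping groups. Without control replicate 1 this list's median was 0.00.

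Markers of cells that a needle cut could carry over were set beside the Id genes, since Id1 and Id3 are also abundant in vessels. Of 10 endothelial markers 5 lay above 0, with list medians of -0.19 and 0.17 in the control arrays and 0.03 and -0.03 in the Ift88-deleted arrays. Vwf, von Willebrand factor, was the single one of the 10 with groups apart (-0.25 and -0.77 against 0.25 and 0.42). Among all genes 14.7% were apart with Ift88-deleted higher. Cldn5, the claudin of endothelial junctions, was at -0.07 and 0.55 against -0.02 and 0.02. Of 8 bone and perichondrium markers 4 lay above 0 (list medians of -0.16 and 0.24 against 0.53 and -0.64). Postn, a perichondrial matrix protein, was at 3.47 in Ift88-deleted 1, and Dmp1, an osteocyte matrix protein, had a difference of -0.72. Of 10 muscle markers 2 lay above 0 (medians of -0.01 and 0.21 against -0.04 and -0.03), with Tnni2 at -1.96 and Mylpf at -1.05. Of 8 blood, marrow and osteoclast markers 2 lay above 0 (medians of -0.17 and 0.51 against -0.05 and 0.03), with the osteoclast genes Acp5 at -1.36 and Ctsk at -0.72. Of the 14 chondrocyte markers 9 lay above 0 (medians of -0.00 and -0.02 against 0.08 and -0.04), with Comp at -0.54 and Col2a1 at 0.25. In the lists other than the endothelial, groups were apart and higher for 1 muscle, 3 chondrocyte, 0 bone and 0 blood markers. They were apart and lower for 3 muscle, 2 bone, 2 chondrocyte, 0 endothelial and 0 blood markers. These counts are of gene means. The share over all genes was not counted, and that over single probe sets, a different unit, was 17.4%. Levels are not kept in these values, so marker sums cannot be given, and the part of other cells in the Id values was not tested.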

How the data were processed

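RNA of 2 control and 2 Ift88-deleted samples was measured on Affymetrix arrays. The deposited values are log2: RMA is named per the submitters' processing notes, with no version. All 45101 probe sets had a median of 0 across the 4 arrays (largest departure 5e-07), and this centring, like the log base, is read from the values and not stated in the sources used here.

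The 64 control probe sets were left out. The other 45037 were fitted one by one in limma 3.58.1 under R 4.3.3 (lmFit on the group, eBayes without trend, two-sided, Benjamini-Hochberg over all, threshold 0.05). Gene values are means over the probe sets that name the gene alone (34945 probe sets, 18193 genes, own fit). Symbols follow the array annotation, updated through gene records of GRCm38.p6. With 2 against 2 arrays an exact permutation test cannot go below 0.333. The p values set each difference against a spread between these samples that moderation draws in part from all probe sets or genes. That shared part counts for 3.46 degrees of freedom over probe sets and 3.83 over genes, beside 2 from the probe set or gene itself.

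Level classes use the steps of single-precision numbers (tolerance 0.001 of a step). The members and lists were chosen with earlier results of these data known. All member probe sets are named, then the 3 genes of each pathway list with the largest absolute difference (none passed), the 3 nearest genes to each of the 2 members with the largest differences, the 2 largest of each marker list, and Xist and Eif2s3y. The replicate numbers are not stated to pair samples. Alternatives were other scalings, moderation, thresholds, filters, the replicate block and leaving out each array. The fit was tested on simulated data. The number of arrays limits the precision.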

Additional observations from a re-analysis of the deposited data

How the results depend on the processing

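Of the 17 probe sets and 8 genes, 0 passed limma's threshold under any alternative run (6 and 4 had an unadjusted p under 0.05 and were higher). Without moderation these counts were 4 and 4, but not of the same members: no Id4 probe set stayed under 0.05, and among the genes Id3 left and Smad6 entered. The probe set count was 8 after quantile normalization and with the replicate block, and the gene count was 2 in the test against 0.5, Id2 and Id4. The adjusted p of Id4 as a gene ranged from 0.105 to 1 over the other settings and from 0.0698 to 0.508 with an array left out, and that of Id2 from 0.202 to 1 and from 0.21 to 0.894. Under quantile normalization run again, array median subtraction, robust or no moderation, a test against 0.5, an adjusted p under 0.1, the dimmest class, X and Y genes left out or control probe sets kept, no difference turned sign. With the most variable probe set in place of the mean, Smad5 turned to -0.22. With arrays left out, Id1 ran from -0.29 to 0.51, the Smad1 probe set 1416081_at from -0.70 to 0.061, the Smad5 probe sets 1421047_at from -0.061 to 0.31 and 1451873_a_at from -0.045 to 0.25, and the Smad5 gene from -0.033 to 0.037. List medians with arrays left out ran from -0.23 to 0.18 for BMP ligands, -0.017 to 0.14 for receptors, -0.077 to -0.0097 for antagonists, 0.049 to 0.15 for other Smads and regulators, -0.16 to 0.21 for other BMP-induced genes and -0.0031 to 0.074 for bHLH factors. Where a group is left with 1 array, that array is assumed to vary like the other group. The cause of these shifts was not tested.

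Same-numbered arrays had deviations correlated at 0.102 over probe sets, and with 2 pairs this does not show pairing. With the replicate block 0 members passed (Id4 as a gene 1.04, adjusted p = 0.407), and the calls over all probe sets went from 20 to 5 and over all genes from 2 to 1. Over all probe sets the calls were 2 without moderation, 11 in the test against 0.5, 5 without X and Y genes and 9 to 12 with an array left out. Over all genes they were 8 with the most variable probe set, 14 after quantile normalization, 1 without moderation, 11 at an adjusted p under 0.1, 4 without the dimmest class, 0 without X and Y genes (1052 with an unadjusted p under 0.05) and 2 to 56 with an array left out. No background correction or slide block could be tried on these values. Signal over background is not known, which limits dim probe sets such as that of Smad6.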
